A study of Mus musculus with 8 samples.

Results

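A set of 34 genes that carry dietary fat through the absorptive cell of the small intestine was followed in the jejunum of C57BL/6 mice, called B6, and of C3H/HeJ mice, called C3H. The genes were chosen by name and cover fatty acid uptake and activation (8 genes), triglyceride synthesis (7), chylomicron assembly (8), chylomicron export (2), a transcriptional regulator (1), the coat of the lipid droplet (4) and lipolysis (4). All 34 were found among the 56941 gene identifiers of the count table, and all 34 were among the 18025 genes with enough counts to be tested. Both groups were naive, and the labels name no transgene, engineered allele or agent in either; C3H/HeJ is known to carry a loss-of-function allele of the lipopolysaccharide receptor gene Tlr4. The labels give an age of 6 to 8 weeks and at least 8 weeks of shared housing before tissue was taken. An age of 6 to 8 weeks leaves little room for that housing, so the age when tissue was taken is uncertain. Sex is not in the labels. Libraries 2, 3, 4 and 5 came from B6 and libraries 1, 3, 4 and 5 from C3H, and values per library are given in that order throughout. The series as a whole concerns the uptake of food allergens in the gut, and the strain comparison addresses how the unchallenged jejunum differs.

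Dietary triglyceride is cut in the gut lumen, and the fatty acids and monoacylglycerol enter the enterocyte, where binding proteins hold them and acyl-CoA synthetases activate them. Enzymes at the endoplasmic reticulum rebuild triglyceride by adding acyl groups to monoacylglycerol, and the transfer protein encoded by Mttp loads it onto apolipoprotein B to form chylomicrons, which leave through COPII carriers towards the lymph. Triglyceride that is not exported at once is held in cytosolic lipid droplets, which perilipins coat and lipases break down again.

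Libraries held 37205896 to 58251332 counts, the genes of the set took 5.65% to 7.84% of them, and 31 of the 34 genes had at least 1000 counts in every library. Markers of the labelled tissue were abundant, and 12 enterocyte markers summed to 31625 to 47815 CPM, the counts of a gene scaled to a common library size with TMM factors. Libraries stood apart in RNA of other tissues. Sums over 16 markers of pancreatic acinar cells were 97.1, 3715, 134 and 1688 CPM in C3H and 361, 156, 71.4 and 93.5 CPM in B6, and 12 adipocyte markers reached 348 CPM in C3H 3 against 48.7 to 103 CPM in the other libraries. Fold changes and counts of calls were also computed without the 4 libraries richest in pancreatic transcripts in both strains together (B6 2, B6 3, C3H 3 and C3H 5; the pancreas-rich libraries) and without the library of each strain richest in adipocyte transcripts (B6 5 and C3H 3). In bulk tissue, fewer cells of a type and less RNA per cell cannot be told apart. Whether the libraries are separate mice is not in the labels, so a p-value here weighs a difference against library spread, which may be technical.

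Most genes of the fat route did not pass the test between strains. Of the 7 that did, 6 were higher in C3H, by 1.36-fold to 1.90-fold. Whether this split by direction differs from that of all genes was not tested. Of the 34 genes, 6 were higher in C3H (Slc27a2, Lpin2, Apoc3, Plin2, Abhd5 and Mgll) and 1 was lower (Acsl3), by edgeR's quasi-likelihood test with Benjamini-Hochberg adjustment over all 18025 genes and a threshold of 0.05. The background was 21.4% of all tested genes called, split into 11.3% higher and 10.1% lower; the 7 called genes make 20.6% of the set, a share near that background and so no result about the set. The same 7 genes were those whose 4 C3H values did not overlap the 4 B6 values, again 20.6%, against 24.4% of all tested genes. The median log2 fold change (C3H over B6) was 0.04 over the 34 genes and 0.03 over all genes tested, and the median of its absolute size was 0.15 against 0.20. Log2 fold changes were positive for 20 of the 34 genes, and for 9723 of all 18025 genes tested. Without C3H 5 they were positive for 13 of the 34. Without the 4 libraries richest in pancreatic transcripts they were positive for 10. Of the 27 genes that did not pass, 24 had a 95% interval inside a 2-fold difference in either direction and 19 inside 1.5-fold.

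**Figure D1:**
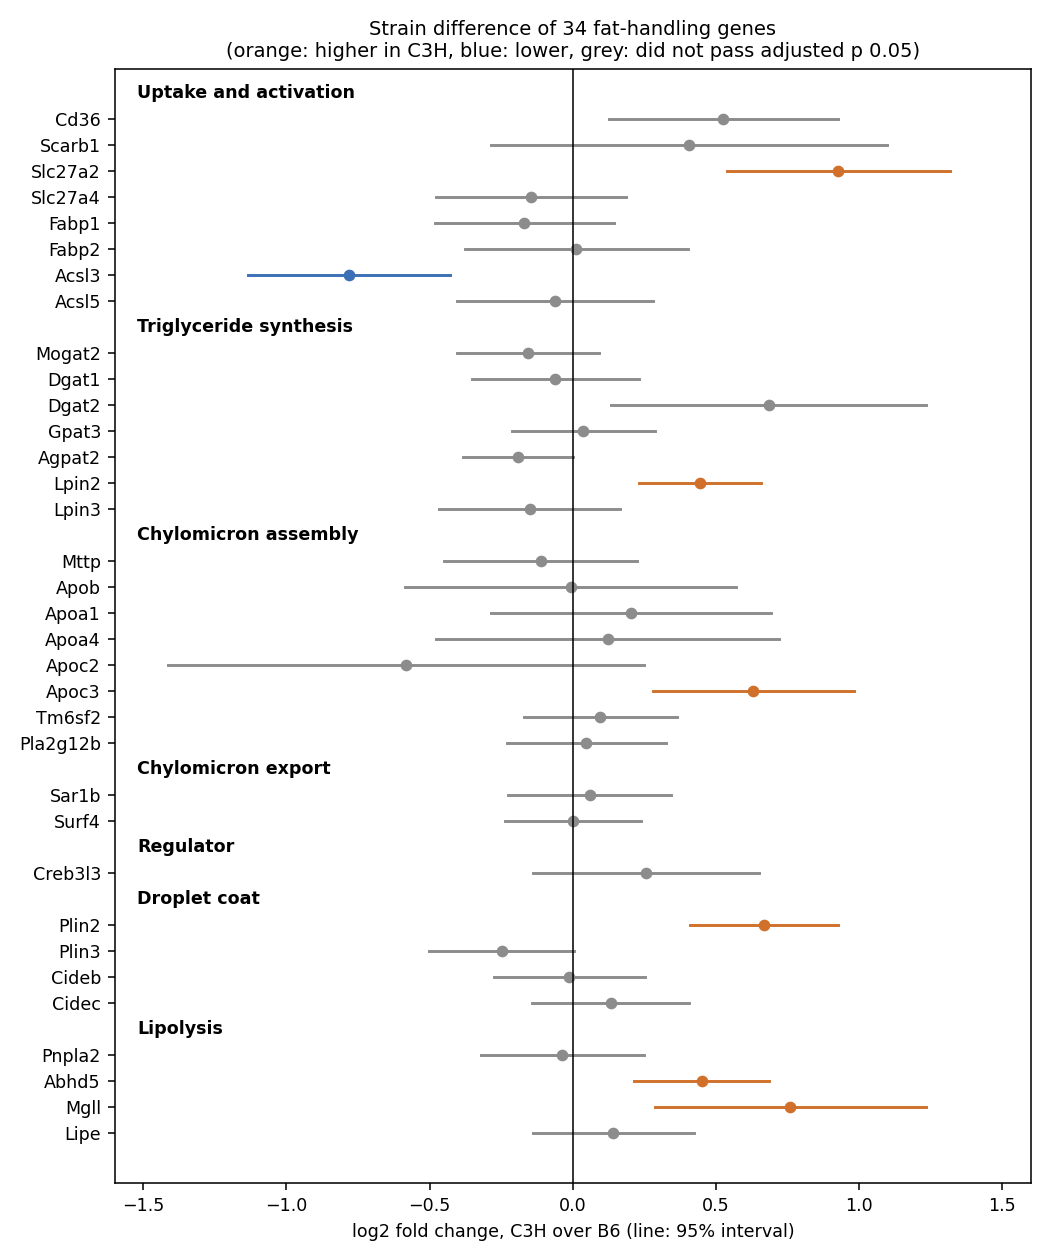
Log2 fold change of C3H over B6 (horizontal axis) for the 34 genes, grouped by step; points are fitted values and lines their 95% intervals. The 6 orange genes were higher and the 1 blue gene lower in C3H, and the grey genes, which did not pass, lie between -0.58 (Apoc2) and 0.68 (Dgat2).

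These calls rest on the 4 libraries per strain. Without the 4 libraries richest in pancreatic transcripts, 2 libraries per strain were left. There edgeR called 0 of the 34 genes (5 higher and 2 lower at an unadjusted p under 0.05), while 9.02% of all genes still passed. The fitted direction of the 7 called genes did not turn. For a call lost in this fit, here and below, fewer libraries and less pancreatic RNA cannot be told apart. When libraries were instead scaled to the summed counts of the 12 enterocyte markers (a choice made once the data had been seen), the median log2 fold change of all genes moved from 0.03 to 0.22 and the share of called genes that were higher in C3H from 52.9% to 73.4%. With that scaling 10 of the 34 genes were higher (Apoa1, Cd36, Creb3l3 and Dgat2 were added) and 0 were lower (1 at an unadjusted p under 0.05).

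Among the 8 uptake and activation genes, 1 rose and 1 fell, where 11.3% of all genes tested were higher and 10.1% lower. These 2 were not the abundant intestinal forms. Slc27a2 (ENSMUSG00000027359) encodes FATP2, a fatty acid transport protein and very long chain acyl-CoA synthetase best known from liver and kidney. Its level was 246, 233, 318 and 254 CPM in B6 and 352, 469.9, 512 and 665 CPM in C3H. All 4 C3H libraries lay above all 4 B6 libraries. The mean was 499.8 ± 129 CPM in C3H against 263 ± 38.0 in B6 (SD, n = 4 each), 1.90-fold higher (log2 fold change 0.93, standard error 0.18, adjusted p = 0.00298). Without the 4 libraries richest in pancreatic transcripts the log2 fold change was 0.58 (adjusted p = 0.172), the only alternative of 21 in which it did not pass.

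Acsl3 (ENSMUSG00000032883), an acyl-CoA synthetase of the endoplasmic reticulum and of growing lipid droplets, went the other way. It was at 19.5, 26.3, 28.6 and 20.5 CPM in B6 and 17.1, 11.5, 11.6 and 14.9 CPM in C3H. The highest C3H library, C3H 1, was below the lowest B6 library, B6 2. The mean was 13.8 ± 2.75 CPM in C3H against 23.7 ± 4.45 in B6 (SD, n = 4 each), 1.72-fold lower (log2 fold change -0.78, standard error 0.16, adjusted p = 0.00476). The call was lost without the 4 libraries richest in pancreatic transcripts (log2 fold change -0.78, adjusted p = 0.0661) and with scaling to enterocyte markers (-0.57, adjusted p = 0.0808). In the annotation used here, 244 exonic bases of Acsl3 overlap Utp14b on the same strand, and Utp14b was also lower (14.9 CPM in B6 against 6.14 CPM; log2 fold change -1.28, adjusted p = 0.000502); the part of the overlap in the Acsl3 counts was not tested.

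The other 6 genes of this step did not pass. Cd36 (ENSMUSG00000002944), the fatty acid translocase of the brush border, was at 187, 164, 273 and 167 CPM in B6 and 209.8, 297, 302 and 330.2 CPM in C3H (log2 fold change 0.53, standard error 0.18, adjusted p = 0.0633). Only B6 4 and C3H 1 crossed: B6 4 lay above C3H 1 and below the other C3H libraries. Cd36 passed in 8 of the 21 alternatives, among them DESeq2's Wald test (adjusted p = 0.0254) and the fit without B6 4 (log2 fold change 0.72, adjusted p = 0.00642). Scarb1, the scavenger receptor SR-BI that also binds high density lipoprotein, ran from 20.6 to 37.6 CPM in B6 and from 20.8 to 69.6 CPM in C3H (log2 fold change 0.41, adjusted p = 0.414), with C3H 5 at the top; without C3H 5 its fold change was -0.02.

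The forms that dominate in the gut did not separate by strain. Slc27a4, which encodes FATP4, was at 1324, 1599.6, 1548 and 1367 CPM in B6 and 1121, 1109, 1369.7 and 1672 CPM in C3H (log2 fold change -0.15, 95% interval -0.48 to 0.18). Fabp2, the intestinal fatty acid binding protein, was at 6099.7, 6363, 6263 and 6112 CPM in B6 and 5591, 5368, 6021 and 8077 CPM in C3H (0.01, -0.38 to 0.40). Fabp1, the liver-type binding protein that enterocytes of this region also make, was at 2763, 2758, 2896 and 3215 CPM in B6 and 2386, 2314, 2516 and 3126 CPM in C3H (-0.17, -0.48 to 0.14). The C3H values of all 3 enclosed or overlapped the B6 values, with C3H 5 the highest C3H library each time. Acsl5, the main long chain acyl-CoA synthetase of small intestine, was at 2853 ± 173 CPM in B6 and 2735 ± 524 CPM in C3H (SD, n = 4 each; -0.06, -0.40 to 0.28).

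**Figure D2:**
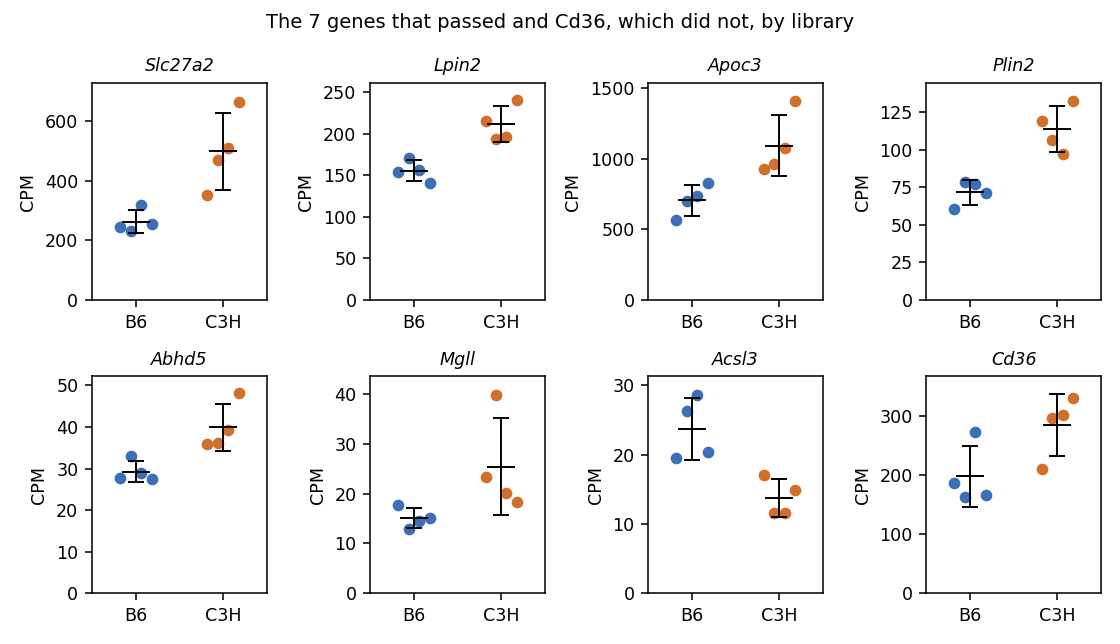
CPM in each library (vertical axis, starting at 0) for the 7 genes that passed and for Cd36, with the mean and SD of 4 libraries per strain. The 4 C3H points lie above the B6 points for the 6 raised genes and below them for Acsl3, whereas for Cd36 C3H 1 (209.8 CPM) sits below B6 4 (273 CPM).

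In triglyceride synthesis 1 of 7 genes rose and 0 fell, with 2 higher and 0 lower at an unadjusted p under 0.05 in edgeR. Among all genes tested, 11.3% were called higher and 10.1% lower. DESeq2 and limma-voom also called 0 lower. At an unadjusted p under 0.05, DESeq2 had 1 lower and limma-voom 0. The monoacylglycerol route makes most triglyceride in enterocytes after a meal, and its genes Mogat2 and Dgat1 did not pass. Mogat2, the monoacylglycerol acyltransferase that opens this route, was at 489.8, 573, 539 and 537 CPM in B6 and 409.8, 443, 509 and 558 CPM in C3H (log2 fold change -0.16, 95% interval -0.40 to 0.09). Dgat1, which adds the last acyl group, was at 736, 835, 874 and 874 CPM in B6 and 651, 715, 874 and 942 CPM in C3H (-0.06, -0.35 to 0.23). Both genes overlapped between strains and were lowest in C3H 1. Dgat2, the second and unrelated enzyme for the same last reaction, was at 493, 577, 979 and 451 CPM in B6 and 741, 872, 1118 and 1288 CPM in C3H (log2 fold change 0.68, standard error 0.25, adjusted p = 0.0768). B6 4 alone lay within the C3H range; without it the log2 fold change was 0.98 (adjusted p = 0.00463), and Dgat2 passed in 5 of 21 alternatives.

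Lpin2 (ENSMUSG00000024052), one of the lipins that remove the phosphate from phosphatidate on the glycerol phosphate route, was the gene that rose. It was at 154, 171, 157 and 141 CPM in B6 and 216, 193, 197 and 241 CPM in C3H, with no overlap between strains. The mean was 212 ± 22.1 CPM in C3H against 156 ± 12.5 in B6 (SD, n = 4 each), 1.36-fold higher (log2 fold change 0.44, standard error 0.10, adjusted p = 0.00704). It passed in 19 of 21 alternatives, and was lost without the 4 libraries richest in pancreatic transcripts (log2 fold change 0.46, adjusted p = 0.141) and with the replicate block described in the closing section (0.41, adjusted p = 0.0702). Its relative Lpin3 overlapped between strains (-0.15, 95% interval -0.47 to 0.16), as did Gpat3 (0.04, -0.21 to 0.29) and Agpat2 (-0.19, -0.38 to 0.00), which add the first and the second acyl group on that route. Gpat3 shares 1052 exonic bases with an antisense transcript, 4930458D05Rik, which was lower in C3H (2.78 CPM against 9.07, log2 fold change -1.71, adjusted p = 1.86e-05); without the strand setting of the counting, reads of the pair cannot be told apart.

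Chylomicron assembly held the most abundant transcripts of the set. Of its 8 genes 1 rose (Apoc3) and 0 fell (0 at an unadjusted p under 0.05 in edgeR, and 0 by DESeq2 and limma-voom). Among all genes tested, 11.3% rose and 10.1% fell. Per kilobase of exon, the mean B6 levels were 12839 CPM for Apoa4, 7103 for Apoa1, 696 for Apoc3, 628 for Mttp and 544 for Apob. Apoa4 had the highest CPM of all tested genes, and Apoa4 and Apoa1 together made 44.3% to 53.6% of the CPM of the set in each library. Mttp, the triglyceride transfer protein, was at 3932, 4008, 4111 and 3538 CPM in B6 and 3138, 3196, 3752 and 4339.9 CPM in C3H (log2 fold change -0.11, 95% interval -0.45 to 0.23). Apob, the structural protein of the particle, was at 7934, 6245, 11139 and 5028 CPM in B6 and 5539.6, 7458, 8401 and 8789 CPM in C3H (-0.01, -0.59 to 0.57). For Apob the widest spread was within B6, where B6 4 held the highest and B6 5 the lowest of all 8 values; the strain means differed by less than that spread.

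Apoa4, a lipid-binding apolipoprotein of nascent chylomicrons, was at 17675, 23848, 28078 and 23608 CPM in B6 and 19396, 21337, 27844 and 32865 CPM in C3H (log2 fold change 0.12, 95% interval -0.48 to 0.72). Apoa1, the main protein of high density lipoprotein and also a chylomicron protein, was at 7026, 8929.9, 10373 and 8789.9 CPM in B6 and 7806, 8606, 10942 and 13063 CPM in C3H (0.20, -0.29 to 0.69). In both genes B6 2 and C3H 1 were the lowest of their strain and C3H 5 the highest of all, and the strains overlapped. These intervals leave room for differences of more than 1.5-fold.

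Apoc3 (ENSMUSG00000032081) lies in the same gene cluster as Apoa1 and Apoa4 and encodes an inhibitor of lipoprotein lipase and of remnant uptake. It was at 563, 699, 736 and 826 CPM in B6 and 928, 961, 1076 and 1406 CPM in C3H. Every C3H library was above the highest B6 library, B6 5. The mean was 1093 ± 218 CPM in C3H against 706 ± 109.5 in B6 (SD, n = 4 each), 1.55-fold higher (log2 fold change 0.63, standard error 0.16, adjusted p = 0.0156). The call was lost without B6 2 (log2 fold change 0.52, adjusted p = 0.0513) and without the 4 libraries richest in pancreatic transcripts (0.35, adjusted p = 0.448). Apoc2, which encodes the activator of the same lipase, had 188 counts over all 8 libraries (-0.58, 95% interval -1.41 to 0.25); 646 of its 813 exonic bases overlap the gene model Gm44805 on the same strand, and how the counting treated shared bases was not tested.

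Tm6sf2 and Pla2g12b, which encode proteins of the endoplasmic reticulum that help load lipid onto apolipoprotein B, had log2 fold changes of 0.10 (95% interval -0.17 to 0.36) and 0.05 (-0.23 to 0.33). For export, Sar1b encodes the COPII GTPase needed for chylomicrons to leave the endoplasmic reticulum and Surf4 a cargo receptor for lipoproteins. Sar1b, whose close copy Sar1a makes its counts less certain, was at 213 ± 8.51 CPM in B6 and 222 ± 45.1 in C3H, and Surf4 at 695 ± 51.2 and 695 ± 75.7 (SD, n = 4 each). Of these 2 export genes 0 passed, 0 had an unadjusted p under 0.05 in edgeR, and 0 passed by DESeq2 or limma-voom. Creb3l3, a membrane-bound transcription factor (CREB-H) that drives apolipoprotein genes, was at 552, 670.0, 831 and 670.4 CPM in B6 and 596, 732, 864 and 1058 CPM in C3H. The strains overlapped, with C3H 5 the highest (log2 fold change 0.25, standard error 0.18, adjusted p = 0.363). Creb3l3 passed in 1 of 21 alternatives, the scaling to enterocyte markers (0.40, adjusted p = 0.0147).

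**Figure D3:**
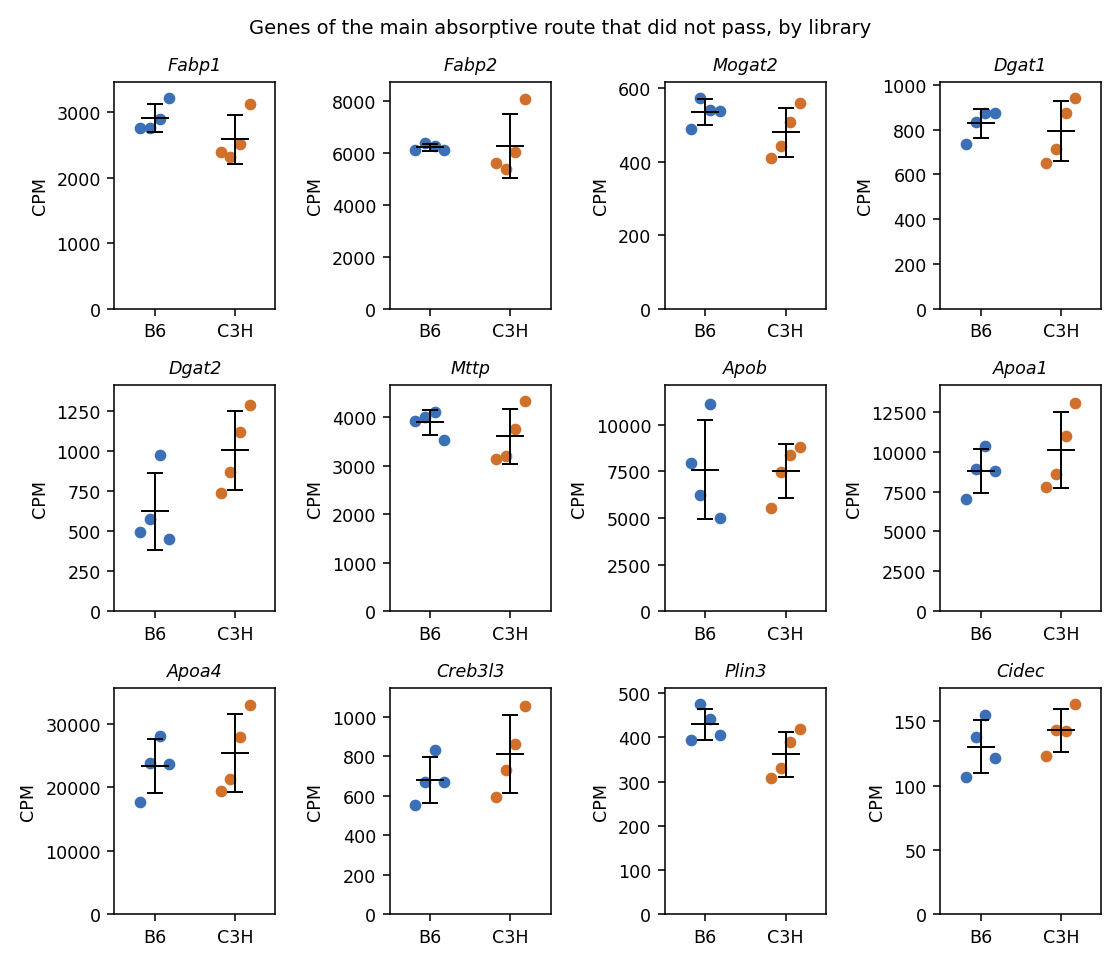
CPM in each library (vertical axis, starting at 0) for 12 genes of the absorptive route that did not pass, with the mean and SD of 4 libraries per strain. The strains overlap in every panel, and C3H 5 is the highest C3H library in all 12.

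At the lipid droplet, the inducible coat protein gene rose and its constitutive relative did not. Plin2 (ENSMUSG00000028494), which encodes the perilipin that marks droplets in most cells outside fat tissue, was at 60.4, 78.6, 77.6 and 71.0 CPM in B6 and 119.6, 107, 97.5 and 133 CPM in C3H. The lowest C3H library, C3H 4, was above the highest B6 library, B6 3. The mean was 114 ± 15.4 CPM in C3H against 71.9 ± 8.35 in B6 (SD, n = 4 each), 1.59-fold higher (log2 fold change 0.67, standard error 0.12, adjusted p = 0.00182). Plin2 passed in 20 of 21 alternatives, the exception being the fit without the 4 libraries richest in pancreatic transcripts (log2 fold change 0.54, adjusted p = 0.0782).

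Plin3, a perilipin that coats new droplets from the cytosol, was at 395, 475, 440.3 and 406 CPM in B6 and 308, 329.9, 389 and 418 CPM in C3H (log2 fold change -0.25, adjusted p = 0.158). Cideb, which helps lipidate chylomicrons and very low density lipoprotein, had a log2 fold change of -0.01 (95% interval -0.28 to 0.25); 1136 of its 1488 exonic bases overlap Nop9 on the opposite strand. Cidec, which promotes droplet fusion and is also abundant in fat cells, was at 107, 138, 155 and 122 CPM in B6 and 123, 143, 142 and 163 CPM in C3H (0.13, -0.14 to 0.41). All 3 genes overlapped between strains. In the adipocyte-rich library C3H 3, Cidec and Plin2 (143 and 107 CPM) were above C3H 4 (142 and 97.5 CPM) and below C3H 5. C3H 5 was the highest C3H library for 31 of the 34 genes. The part of adipocytes in these values was not tested.

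Of the 4 lipolysis genes, 2 rose and 0 fell (0 at an unadjusted p under 0.05 in edgeR, and 0 by DESeq2 and limma-voom). The shares of all genes tested were 11.3% higher and 10.1% lower, and 4 genes are too few to set against them. Abhd5 (ENSMUSG00000032540) encodes CGI-58, the coactivator of the adipose triglyceride lipase ATGL. It was at 27.6, 32.9, 28.9 and 27.4 CPM in B6 and 36.0, 36.1, 39.4 and 48.1 CPM in C3H, and all C3H libraries were above all B6 libraries. The mean was 39.9 ± 5.70 CPM in C3H against 29.2 ± 2.55 in B6 (SD, n = 4 each), 1.37-fold higher (log2 fold change 0.45, standard error 0.11, adjusted p = 0.0114). The call was lost without the library of each strain richest in adipocyte transcripts (log2 fold change 0.45, adjusted p = 0.0536) and without the 4 richest in pancreatic transcripts (0.41, adjusted p = 0.130). Pnpla2, which encodes ATGL itself, was at 126, 159, 151 and 153 CPM in B6 and 109, 165, 145 and 155 CPM in C3H (-0.04, 95% interval -0.32 to 0.25).

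Mgll (ENSMUSG00000033174) encodes monoacylglycerol lipase, which splits the last acyl group from glycerol and also degrades an endocannabinoid. It was at 17.6, 12.9, 14.4 and 15.2 CPM in B6 and 23.4, 39.7, 20.2 and 18.3 CPM in C3H. C3H 3 stood at the top, and the lowest C3H library, C3H 5, was just above the highest B6 library, B6 2. The mean was 25.4 ± 9.76 CPM in C3H against 15.0 ± 1.98 in B6 (SD, n = 4 each), 1.69-fold higher (log2 fold change 0.76, standard error 0.22, adjusted p = 0.0272). The library C3H 3 also had the highest adipocyte sum, and without it the log2 fold change of Mgll was 0.44 (adjusted p = 0.0416). The call was lost with B6 3, B6 4 or B6 5 left out singly (adjusted p = 0.0763, 0.0590 and 0.0594), without both adipocyte-richest libraries (0.45, adjusted p = 0.0755), without the 4 pancreas-rich ones (0.55, adjusted p = 0.0723) and with the replicate block (0.78, adjusted p = 0.0587). Lipe, the hormone-sensitive lipase, did not pass (0.14, 95% interval -0.14 to 0.42).

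Ratios of counts within a library do not depend on how libraries are scaled, and they were formed for 10 pairs of related genes. The pairs were picked after the values above were known and are given as a description, with no test. Most set a gene that passed against a relative that did not, so a lack of overlap follows in part from this choice. Other pairs of genes were not examined. Slc27a2 reached 18.6, 14.5, 20.5 and 18.6% of the Slc27a4 count in the B6 libraries and 31.4, 42.4, 37.4 and 39.8% in the C3H libraries, a mean ratio 2.09-fold higher in C3H. Plin2 reached 15.3, 16.6, 17.6 and 17.5% of the Plin3 count in B6 and 38.8, 32.3, 25.1 and 31.8% in C3H, 1.89-fold higher. The balance within both pairs did not overlap between strains, although Slc27a4 and Plin3 stayed the larger partner throughout.

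For the last step of triglyceride synthesis the ratio was also higher in every C3H library, by a narrow margin, although Dgat2 itself did not pass. The ratio of Dgat2 to Dgat1 counts was 0.670, 0.692, 1.12 and 0.516 in B6 and 1.14, 1.22, 1.28 and 1.37 in C3H, 1.74-fold higher; B6 4, at the top of B6, was just below C3H 1. Lpin2 over Lpin3 was 1.41, 1.37, 1.16 and 1.23 in B6 and 2.63, 1.99, 1.57 and 1.84 in C3H, 1.53-fold higher. Within the apolipoprotein cluster, Apoc3 reached 3.18, 2.93, 2.62 and 3.50% of the Apoa4 count in B6 and 4.79, 4.50, 3.87 and 4.28% in C3H, 1.43-fold higher. These 3 balances and that of Apoc3 to Apoa1 (1.35-fold higher) did not overlap between strains. The other 4 did: Acsl3 over Acsl5, Mgll over Pnpla2, Abhd5 over Pnpla2 and Cidec over Cideb had log2 differences of -0.71, 0.75, 0.49 and 0.15.

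**Figure D4:**
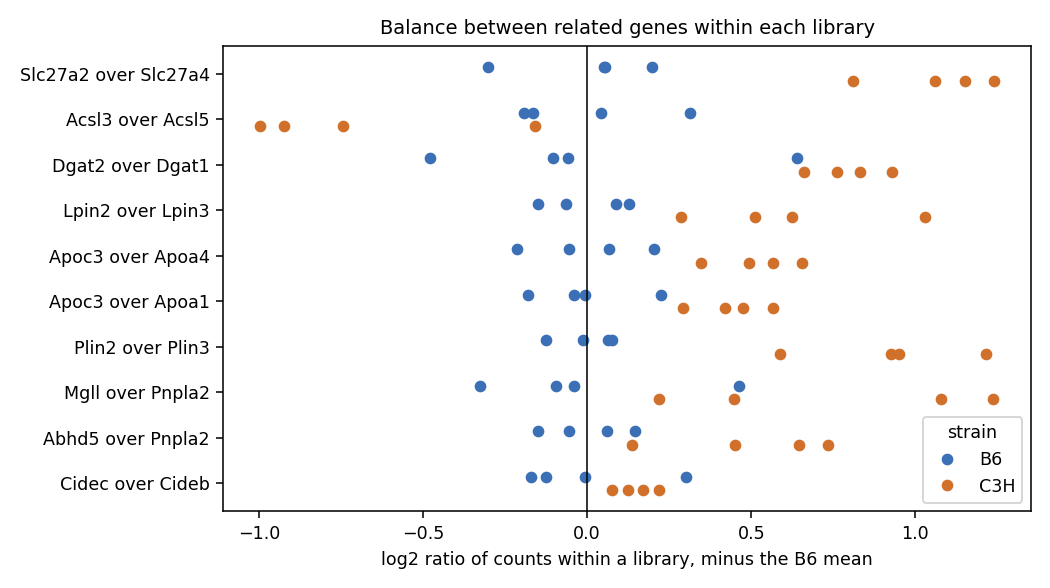
Log2 ratio of counts of 2 related genes within each library, minus the mean of the B6 libraries (horizontal axis), for 10 pairs; each point is 1 library. The strains do not overlap for 6 pairs, with mean log2 differences from 0.44 (Apoc3 over Apoa1) to 1.07 (Slc27a2 over Slc27a4).

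Genes of the set tended to be high or low in the same libraries. C3H 5 was the highest C3H library for 31 of the 34 genes and C3H 1 the lowest for 24; B6 2 was the lowest B6 library for 23. The median coefficient of variation over the 34 genes was 18.2% in C3H and 10.1% in B6. Neither these counts nor this spread was computed over all genes tested. Whether they are particular to the set was therefore not tested. Summed over the set, CPM were 55789.9, 64259.9, 75193 and 61614 in B6 and 54236, 59472, 72431 and 85659 in C3H. Enterocyte markers were at 43025, 44834, 47187 and 42669 CPM in B6 and 31625, 36846, 43261 and 47815 CPM in C3H. On this scale C3H 1 was lowest and C3H 5 highest in both sums. The TMM factors behind it were largest for C3H 1 (1.13) and smallest for C3H 5 (0.915). As a plain share of library counts the set was lowest in B6 2 (5.65%), with C3H 1 at 6.14% and C3H 5 highest at 7.84%. Of the 12 enterocyte markers 0 were called higher and 1 lower (Cdx2) by edgeR, with 0 higher and 3 lower at an unadjusted p under 0.05; DESeq2 called 5 lower and limma-voom 1. The 6 upper-villus markers summed to 2531, 2884, 3423 and 2470.2 CPM in B6 and 1362, 1606, 2666 and 3057 CPM in C3H. The part of these shifts in the results for single genes was not tested, other than by the scaling to enterocyte markers.

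**Figure D5:**
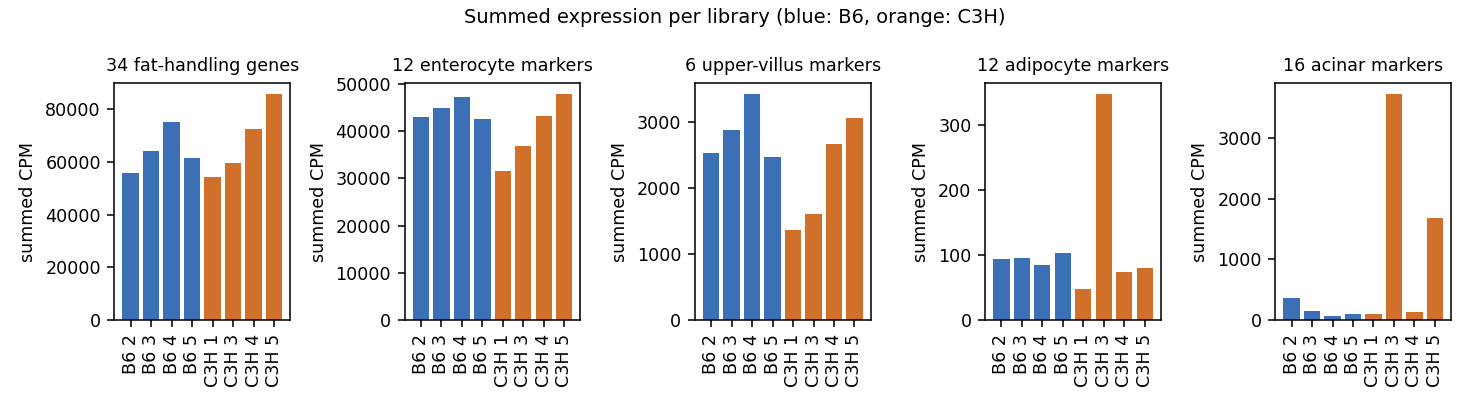
Summed CPM per library (vertical axes, starting at 0; blue B6, orange C3H) of the 34 genes and of 4 lists of cell markers. On this TMM scale C3H 1 is lowest and C3H 5 highest for the 34 genes and the enterocyte markers. C3H 3 alone is high for adipocyte markers (348 CPM), and C3H 3 and C3H 5 are high for acinar markers.

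Other cells of the tissue can carry some of these transcripts. Of 12 adipocyte markers edgeR called 0 (0 at an unadjusted p under 0.05, and 0 by DESeq2 and limma-voom); Adipoq, Cfd and Plin1 had 0 counts in C3H 1 and were at 31.5, 105 and 19.9 CPM in C3H 3. Macrophage markers summed to 242 ± 22.6 CPM in B6 and 288 ± 13.0 in C3H, with 2 of 10 higher (Csf1r and C1qa). Endothelial markers summed to 136 ± 6.92 CPM and 175 ± 20.4 (SD, n = 4 each), with 3 of 10 higher (Kdr, Tek and Tie1). Plin2, Cd36 and Mgll are also expressed in such cells, and the part of these cells in their values was not tested. Of 8 markers of the proximal small intestine 3 were higher (Cybrd1, Slc40a1 and Cbr1). Of 6 tested markers of the distal small intestine 2 were lower (Slc51a and Slc51b). The other 5 proximal and 4 distal markers did not pass. Proximal markers summed to 4466 ± 722 CPM in B6 and 4504 ± 909 in C3H (SD, n = 4 each). The 7 distal markers listed summed to 1088 ± 299 CPM in B6 and 1055 ± 348 in C3H. Over all genes tested 11.3% were higher and 10.1% lower.

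Promoter sequences were read for the genes with an entry in RefSeq's mouse annotation (GRCm38.p6, an earlier build than the GRCm39 used for the counts), to see what the raised genes hold in common. Of the 34 genes, 28 had an entry, and Scarb1, Mogat2, Dgat1, Dgat2, Apoc3 and Tm6sf2 had none. Only the first listed start site of each gene was read. Further starts of Lpin2 (3 listed) and of Mgll, Lpin3, Creb3l3, Cidec and Lipe (2 listed each) were not searched. In the 250 bases before the start site, the hexamer AGGTCA, the unit that nuclear receptors such as PPARs and HNF4 recognise, was found on either strand in 7 of 28 promoters (25.0%) against 13.8% of 27025 promoters of the same length. At the start site read, the hexamer was present in 3 of the 5 raised genes with an entry, all but Lpin2 and Mgll. It was present in 4 of the 22 that did not pass, and not in Acsl3. The 30 bases around the match are shown for these 7 genes, on the gene's own strand, 5′ to 3′, with the hexamer (AGGTCA or its reverse complement TGACCT) in capitals; Slc27a2, Plin2 and Abhd5 were the raised ones.
Slc27a2: gcaccacgccttTGACCTtttcaacgtggg
Plin2: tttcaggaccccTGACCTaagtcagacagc
Abhd5: gcggcgtcgggcTGACCTtccttaccagtg
Cd36: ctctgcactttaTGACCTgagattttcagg
Fabp1: atcgacaatcacTGACCTatggcctatatc
Apoc2: tcttgaggccagAGGTCAaccttccgtcat
Creb3l3: taagtaggggagAGGTCAcacagacccgac

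These windows lie at chr2:126552792-126552821 (plus strand), chr4:86670260-86670289 (minus), chr9:122351535-122351564 (plus), chr5:17836107-17836136 (minus), chr6:71199800-71199829 (plus), chr7:19678039-19678068 (minus) and chr10:81092776-81092805 (minus). Relative to the start site, the hexamer began at position -220 in Slc27a2, -218 in Plin2, -69 in Abhd5 and -228 in Cd36. Slc27a2, Plin2, Abhd5, Cd36 and Fabp1 read TGACCT on their own strand, and Apoc2 and Creb3l3 read AGGTCA; Fabp1 held 2 matches, of which the one shown is at -67. Other motifs searched on both strands were the HNF4 core CAAAGTCCA in 0 of 28 promoters (0.381% of all), TATAAA in 10.7% (13.0% of all), GGGCGG in 46.4% (32.9%) and TGACG in 21.4% (17.9%). The median GC content was 58.4% over the 28 promoters and 52.0% over all. A match describes letters in this window and does not show that a factor binds there.

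Beyond the 34 genes, 153 other genes of the same pathways were listed and 140 were tested. Of these 27 were higher in C3H and 14 lower (median log2 fold change 0.07). Over all genes tested 11.3% were higher and 10.1% lower. Whether any list counted below differs from these shares was not tested. Without the 4 libraries richest in pancreatic transcripts 10 were higher and 7 lower, where 9.02% of all genes were called. With scaling to enterocyte markers 35 were higher and 4 lower, where 17.5% of all genes were called and 73.4% of these were higher. Lipases and hydrolases other than those above included 7 higher and 1 lower of 17 tested, with log2 fold changes from -1.32 to 2.45. The 4 called ones with the smallest adjusted p are named here, and all 4 were higher. Ces1d and Ces1g, carboxylesterases that hydrolyse triglyceride and cholesteryl ester, rose with log2 fold changes of 2.45 and 1.98 (adjusted p = 3e-05 and 0.000119), and Ces1f rose too (0.64). Without the pancreas-rich libraries the values were 1.80 for Ces1d, 1.46 for Ces1g and 0.51 for Ces1f, and the Ces1f call was lost (adjusted p = 0.163). The Ces1 genes are near copies of each other, so the split of reads between them is uncertain. Lipa, the lysosomal acid lipase, rose from 146 ± 29.4 to 234 ± 53.6 CPM (SD, n = 4 each), with a fold change on the log2 scale of 0.68 (standard error 0.17, adjusted p = 0.0156), a call that was lost without B6 2 (adjusted p = 0.0506), without the adipocyte-richest library of each strain (0.0644) and without the pancreas-rich libraries (0.43, adjusted p = 0.298).

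Of 13 other droplet genes 3 were higher and 0 lower, and DESeq2 and limma-voom also called 0 lower. At an unadjusted p under 0.05, 0 were lower in edgeR, 1 in DESeq2 and 0 in limma-voom. Hsd17b13, a droplet-bound dehydrogenase, was at 23.3, 22.5, 24.4 and 26.5 CPM in B6 and 45.4, 47.03, 50.6 and 66.0 CPM in C3H (log2 fold change 1.11, standard error 0.12, adjusted p = 5.72e-05), with every C3H library above every B6 library. G0s2, an inhibitor of ATGL, rose (0.92, adjusted p = 0.0161), as did Fitm2, which acts in droplet budding (0.56, adjusted p = 0.00193). Both calls were lost without the pancreas-rich libraries, at 0.50 for G0s2 (adjusted p = 0.251) and 0.43 for Fitm2 (adjusted p = 0.159). With all libraries, the activator Abhd5 and the inhibitor G0s2 of the same lipase were both called higher.

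In uptake and activation, 4 of 17 other genes were higher, among them Dbi, the acyl-CoA binding protein (0.49, adjusted p = 0.00618), Acsl1 (0.58, adjusted p = 0.0071) and Got2, an aspartate aminotransferase also described as a fatty acid binder at the plasma membrane (0.31, adjusted p = 0.0342); the only lower one was Acsbg1, another acyl-CoA synthetase (-1.36, adjusted p = 0.000491). Without the pancreas-rich libraries the calls of Dbi (0.38, adjusted p = 0.346) and Acsl1 (0.26, adjusted p = 0.403) were lost. In glycerolipid synthesis 2 of 14 were higher and 3 lower. Mogat1, the monoacylglycerol acyltransferase related to Mogat2, was at 0.186, 0.0245, 0.0924 and 0.0186 CPM in B6 and 1.08, 2.05, 3.15 and 3.92 CPM in C3H (log2 fold change 5.01, standard error 0.57, adjusted p = 8.47e-05); it had 14 counts in all B6 libraries and 431 in all C3H libraries. Its value was 5.65 without B6 2, and 5.91 on the 6 libraries with shared replicate numbers (5.96 with the replicate block). Gk, the glycerol kinase, fell (-0.70, adjusted p = 0.000613), as did Tmem68 (-0.74, adjusted p = 0.000567) and Agpat3 (-0.50, adjusted p = 0.00583). With scaling to enterocyte markers the calls of Tmem68 (-0.54, adjusted p = 0.0667) and Agpat3 (-0.32, adjusted p = 0.0685) were lost, that of Agpat3 also without the pancreas-rich libraries (-0.52, adjusted p = 0.148). The Got2 call was lost with B6 2, B6 4 or B6 5 left out, or with C3H 3, C3H 4 or C3H 5 left out (adjusted p up to 0.0978). It was also lost without the pancreas-rich libraries (adjusted p = 0.365), without the adipocyte-richest ones (0.0892), with no filter on low counts (0.0739) and on the 6 libraries with shared replicate numbers (0.0705, or 0.0663 with the replicate block).

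Among other apolipoproteins and assembly factors 1 of 13 was higher and 1 lower. Apoe, which directs remnants to their receptors, was at 185, 236, 219 and 294 CPM in B6 and 62.1, 76.6, 54.7 and 59.8 CPM in C3H (log2 fold change -1.88, standard error 0.15, adjusted p = 5.53e-06), with all C3H libraries below all B6 libraries. Smlr1, which acts in lipoprotein secretion, rose (0.69, adjusted p = 0.000188). Of 21 genes of the COPII coat and its cargo receptors 0 were higher (0 at an unadjusted p under 0.05 in edgeR, and 0 by DESeq2 and limma-voom) and 4 lower: Mcfd2 (-0.74, adjusted p = 0.000391), its partner Lman1 (-0.32, adjusted p = 0.0319), Tmed2 (-0.31, adjusted p = 0.0131) and Sec23b (-0.32, adjusted p = 0.0205). The latter 3 did not pass with library totals as scaling, with scaling to enterocyte markers, without B6 3 or without the pancreas-rich libraries (adjusted p up to 0.639). Lman1 also did not pass without B6 4, C3H 3, C3H 4 or C3H 5, and with the replicate block neither Lman1 (adjusted p = 0.0637) nor Sec23b (0.0615) did.

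Of 29 lipid-sensing and transcription genes tested, 7 were higher and 2 lower. Nr1h4, the bile acid receptor FXR, was at 16.5, 13.0, 16.3 and 18.5 CPM in B6 and 35.6, 39.1, 46.01 and 49.1 CPM in C3H (log2 fold change 1.40, standard error 0.13, adjusted p = 1.74e-05). Nr0b2, which encodes SHP, rose as well (1.61, adjusted p = 1.28e-05). Activity of FXR was not tested. Gip, the incretin released after fat and sugar, was at 70.3 ± 14.4 CPM in B6 and 172 ± 32.9 in C3H (SD, n = 4 each; 1.29, adjusted p = 0.000248), and Ffar4, a receptor for long chain fatty acids, rose from a low level (1.19, adjusted p = 0.000494). Fatty acid synthesis had 3 of 16 higher and 2 lower. Me1, the cytosolic malic enzyme, rose (1.73, adjusted p = 3.33e-05), as did Acss2 (0.62) and Elovl5 (0.42), and Scd2 fell (-0.73, adjusted p = 0.00143). Without the pancreas-rich libraries the calls of Acss2 (0.57, adjusted p = 0.0511), Elovl5 (0.47, adjusted p = 0.115) and Scd2 (-0.54, adjusted p = 0.0974) were lost. The Scd2 call was also lost with scaling to enterocyte markers (-0.52, adjusted p = 0.106). Elovl5 also did not pass without the adipocyte-richest libraries (adjusted p = 0.0667) or on the 6 libraries with shared replicate numbers (0.0520, or 0.0551 with the replicate block).

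The genes whose pattern over the 8 libraries was most like that of Apoa4 were Tmem59, Apoa1 and Tex261 (Spearman rho 1.00, 0.976 and 0.976); 19 tested genes reached at least the third of these values. For Plin2 they were Acot1, a cytosolic acyl-CoA thioesterase whose close copy Acot2 makes its counts less certain, Nfe2l2, the transcription factor NRF2, and Arhgap10, each with rho 1.00. The points share library and depth, and the genes were picked as the highest of many tested genes over only 8 libraries. The correlations are therefore descriptions with no test. Acot1 was at 1.12 ± 0.169 CPM in B6 and 4.74 ± 1.12 in C3H (SD, n = 4 each) and Nfe2l2 at 244 ± 11.4 and 397 ± 31.2.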

How the data were processed

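The deposited table holds raw counts per Ensembl gene for 8 jejunum libraries (total RNA, Illumina Stranded mRNA preparation with 200 ng input at RIN over 7, batch 1, per the labels). The authors used STAR 2.7.9a, HTSeq 2.0.2 and GRCm39, per the submitters' processing notes; the annotation release and strand setting were not given in the sources used here. GRCm39 derives from B6, so C3H reads were counted against a B6 sequence, and the effect of this was not tested. Symbols and exon lengths came from GENCODE M21, an annotation of GRCm38 (51948 identifiers matched), and promoters from RefSeq (GRCm38.p6).

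Counts were fitted with edgeR 4.0.16 (R 4.3.3): filterByExpr at a minimum count of 10, TMM scaling (factors 0.915 to 1.13), the quasi-likelihood F test of C3H against B6 and Benjamini-Hochberg adjustment over 18025 genes. Standard errors and 95% intervals were derived from the F statistic. DESeq2 1.42.0 and limma 3.58.1 (voom) were alternatives, with other scalings, filters and sets of libraries. The method was tested on simulated data. Chi-square over degrees of freedom between libraries of a strain was 21.2 to 81.2, so no library was a copy of another.

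The 34 genes and all lists were chosen with earlier results of these data known. Named are all 34; per list of other pathway genes up to 4 called ones with the smallest adjusted p; and the 3 genes most like Apoa4 and Plin2. Of 278 listed symbols 277 were found. Genes outside this rule (Utp14b, 4930458D05Rik, the marker genes) were named after their values were seen.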

Additional observations from a re-analysis of the deposited data

Results flagged for a closer look

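In each strain, each gene of the set and each summed list was checked for a library far from the other 3, by the gap to its nearest neighbour over the range (Dixon's 95% criterion for 4 libraries). None of the 68 checks of single genes met this; of 120 checks in all, 4 did, and chance gives about 1 in 20. In C3H 3, adipocyte markers summed to 348 CPM (48.7 to 79.7 in the other C3H libraries), hepatocyte markers to 51.9 CPM (3.87 to 7.04) and fatty acid synthesis genes to 1196 CPM (714 to 763). In B6 4, proximal small intestine markers summed to 5542 CPM against 4037 to 4221 in the other B6 libraries. Fasn and Scd1 led the fatty acid synthesis sum of C3H 3, at 234 and 270.0 CPM against 50.8 to 56.7 and 2.47 to 15.3 CPM in the other C3H libraries.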

How the results depend on the processing

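Over 21 alternatives, the fold changes of the 34 genes kept their side of the threshold in 678 cases, lost a call in 19 and gained one in 16; 0 called values changed sign. Without the 4 libraries richest in pancreatic transcripts, 1675 genes passed instead of 3857 (853 instead of 2040 higher, 822 instead of 1817 lower), and of the 34 genes 0 were higher and 0 lower (edgeR; 5 and 2 at an unadjusted p under 0.05); with 2 libraries per strain left, fewer samples enter the test. At an adjusted p under 0.01, 2326 genes passed (1217 higher, 1109 lower), with 3 of the 34 higher. Scaling to enterocyte markers, chosen after seeing the data, gave 837 lower genes, and 10 of the 34 higher and 0 lower. The count of higher genes was 1327 with a mean of at least 100 counts, where fewer genes are tested, and 1329 without the library richest in adipocyte transcripts in each strain, where fewer samples enter. With 1 library left out, 5 to 8 of the 34 genes were higher and 1 lower, and without C3H 5 the median over the 34 genes was -0.06. With a replicate block on the 6 libraries that share the numbers 3, 4 and 5, 6 of the 34 were higher, as without the block on the same 6 libraries, but Cd36 and Scarb1 (adjusted p = 0.0313) replaced Lpin2 and Mgll. Libraries of the same number correlated at -0.02, 0.23 and -0.05 in their deviations. Of these 3 pairs, only number 4 held libraries that correlated best with each other. So few pairs cannot show whether the numbers pair the libraries. Apoc2, with the fewest counts of the 34 genes, had the widest interval.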
